A study of Mus musculus with 12 samples.

Results

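Regulatory T cells (Tregs) restrain other immune cells through secreted cytokines and through a further set of enzymes, receptors and soluble factors. The 10 genes described here belong to that further set: Entpd1, Nt5e, Lag3, Tigit, Pdcd1, Havcr2, Tgfb1, Fgl2, Lgals1 and Areg. They are listed by name, and every probe set annotated to 1 of them alone was taken, whatever its signal. This gave 15 probe sets for 8 of the 10 genes, out of 45037 probe sets and 18193 named genes on the array. Entpd1 and Nt5e had 3 probe sets each, Tgfb1, Fgl2 and Lgals1 had 2 each, and Lag3, Pdcd1 and Havcr2 had 1 each. Tigit and Areg are named only. No member probe set passed the adjusted threshold in any comparison of genotypes.

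The study compared Tregs with and without the genes Ebi3 and Il10. Il10 encodes the cytokine IL-10, and the product of Ebi3 is a subunit of both IL-27 and IL-35. RNA of fresh Tregs, isolated from untreated mice by flow sorting, was hybridised to 12 Affymetrix arrays in 4 groups of 3: wild type (WT), Ebi3 –/– (Ebi3_KO), Il10 –/– (Il10_KO) and Ebi3 –/– Il10 –/– (DKO). The arrays come in 3 labelled batches with 1 array of each genotype per batch, and the replicate number is the batch number. The labels give no strain, age, sex or description of the targeted alleles, and nothing in them says that replicates came from different animals, so p-values measure only the spread between these samples, which may be technical. They name no allele or agent shared by all groups and no gate of the sort. Each RNA sample is a bulk of sorted cells, in which fewer cells of a type and less RNA per cell cannot be told apart.

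As background, Entpd1 (the protein CD39) and Nt5e (CD73) are ectoenzymes that act in sequence, the first taking extracellular ATP and ADP to AMP and the second taking AMP to adenosine, which dampens T cell activation through adenosine receptors. Lag3, Pdcd1 (PD-1), Havcr2 (TIM-3) and Tigit are inhibitory receptors of activated T cells, and several of them are carried by effector Tregs. Tgfb1 is secreted in a latent form, Fgl2 is a fibrinogen-like protein that Tregs can release in soluble form, Lgals1 is a glycan-binding lectin, and Areg is an epidermal growth factor family ligand made by tissue Tregs. Fgl2, Havcr2 and Lgals1 are also made by myeloid cells.

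The promoters of Fgl2 and Havcr2 are shown because these were the genes whose leading probe sets lay below WT in all 6 knockout arrays of batches 1 and 2 and above WT in all 3 knockout arrays of batch 3. The sequences are RefSeq's for build GRCm38.p6, 250 bases upstream of the start site, read 5′ to 3′ on the plus strand, at chr5:21372423-21372672 for Fgl2 and chr11:46454681-46454930 for Havcr2. Capitals mark matches to 3 motifs searched on both strands, namely STAT (TTCNNNGAA), forkhead (TGTTTA) and AP-1 (TGANTCA), of which no matches overlapped here.
Fgl2: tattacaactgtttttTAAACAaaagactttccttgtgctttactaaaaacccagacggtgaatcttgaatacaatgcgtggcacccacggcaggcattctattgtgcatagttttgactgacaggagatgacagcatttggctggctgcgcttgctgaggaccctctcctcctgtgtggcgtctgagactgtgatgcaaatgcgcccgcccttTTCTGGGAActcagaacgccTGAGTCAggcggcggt
Havcr2: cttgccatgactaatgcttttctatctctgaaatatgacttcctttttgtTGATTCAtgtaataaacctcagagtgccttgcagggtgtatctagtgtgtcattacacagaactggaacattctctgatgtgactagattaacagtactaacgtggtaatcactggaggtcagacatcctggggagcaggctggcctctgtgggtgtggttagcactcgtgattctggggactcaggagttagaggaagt
The Fgl2 window held a forkhead match on the minus strand at -234, a STAT match at -36 and an AP-1 match at -16, counted in bases from the start site. In the Havcr2 window there was 1 AP-1 match, at -200. Among 32851 windows of the same length, 12.03% held the forkhead letters, 7.02% the STAT letters and 6.75% the AP-1 letters. A match is a description of letters and not a binding site.

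Levels are given as MAS5 signal, which the deposited values show scaled to a common trimmed mean, and differences as log2(signal + 20). The offset makes a difference of a dim probe set smaller than its fold change. A gene's leading probe set is the one of highest mean signal, and the level of one probe set cannot be set against that of another. Tests are by limma over the 31235 probe sets above a filter on dim signal, with Benjamini-Hochberg adjustment over all of them and a threshold of 0.05. All 15 member probe sets passed that filter, 1 of them, the dimmest of Nt5e, through 4 of 12 arrays, none of them WT. The fit has no batch term, and its standard error (SE) and 95% interval stand beside those of a second fit with the labelled batch in the model.

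Ebi3 itself checked the labels. Its probe set read 1062.5 or more on every array with an intact Ebi3 gene and 72.5 or less on the 6 arrays labelled as lacking it. The Il10 probe set read 184.5 to 2939.8 over the 12 arrays and did not separate the Il10 genotypes, and since the labels do not give the part of Il10 removed, it checks neither label nor loss. Treg markers were present on all arrays (11 of 12 listed were measured, none dim, Foxp3 4945.3 to 7955). Markers of other cells differed by batch. The summed signal of 10 myeloid markers was 6946 to 9233 in batch 1, 6475 to 13691 in batch 2 and 51279 to 73488 in batch 3, and the sums for neutrophils, dendritic cells and CD8 T or NK cells were also higher on every array of batch 3 than on any array of batches 1 and 2. By genotype the myeloid sum spanned 6946 to 52536 in WT, 7048 to 51279 in Ebi3_KO, 6475 to 73488 in Il10_KO and 8038 to 72787 in DKO. All 10 myeloid markers were measured and 9 were tested, Itgam being too dim. The summed signal of 12 immediate-early genes was 42601 in WT of batch 1 against 84585 to 151395 on the other 11 arrays.

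None of the 8 suppressive and inhibitory molecules with a probe set differed between genotypes beyond the spread between arrays, as the tests measured it. In simulated data, 3% to 4% of changes of log2 1 in brighter probe sets were recovered without batch, and 56% to 62% with it. Differences of that size could thus be missed. Of the 15 probe sets 0 passed in Ebi3_KO against WT, 0 in Il10_KO against WT and 0 in DKO against WT. The share of all tested probe sets called in these comparisons was 0.0032%, 0.0064% and 0.0096%, or 0.0032%, 0.0384% and 0.0416% with batch in the model, so few probe sets passed anywhere. At an unadjusted p under 0.05, limma gave 0 of 15 members in each of the 3 comparisons without batch, and 3, 3 and 2 with batch in the model. The background at that level with batch was 5.31%, 7.68% and 8.25% of all tested probe sets. The smallest adjusted p of any member in these comparisons was 0.513, for the second probe set of Fgl2 in DKO with batch in the model.

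**Figure D1:**
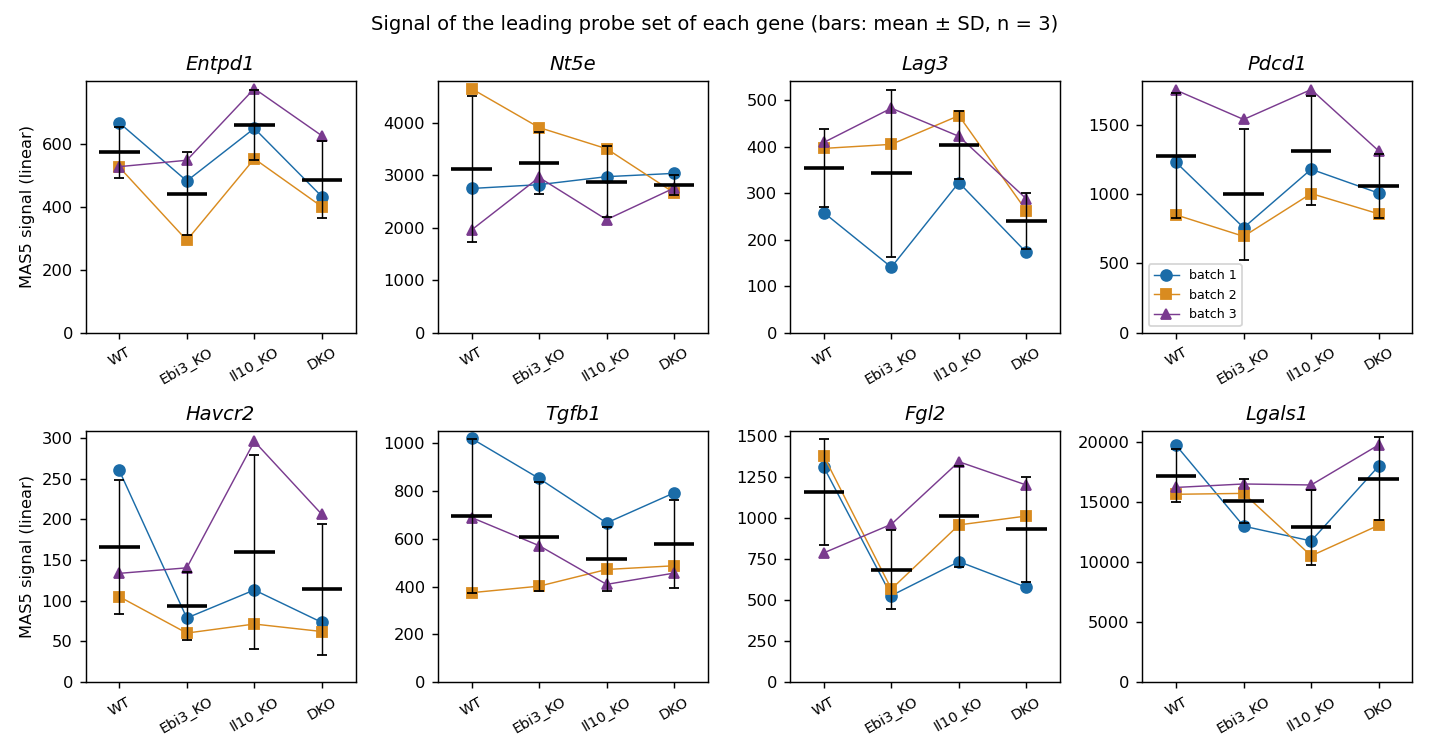
MAS5 signal (linear axis from 0) of the leading probe set of 8 genes on each of the 12 arrays, by genotype, with lines joining arrays of 1 labelled batch and bars for the mean ± SD of 3 arrays. Of the 5 pairs of genotypes compared, the arrays overlap in every panel except in DKO against Il10_KO for Lag3, where the 3 DKO arrays read 172 to 288 and the 3 Il10_KO arrays 323 to 467.

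The first of the adenosine-producing enzymes, Entpd1 (probe set 1423326_at, chromosome 19), read lower on average without Ebi3, by an amount that did not pass the test. In batches 1, 2 and 3 its signal was 667, 526 and 527 in WT and 482, 293 and 548 in Ebi3_KO. It was 649, 552 and 776 in Il10_KO and 432, 400.1 and 626 in DKO. Each knockout overlapped with WT, and the lowest array was Ebi3_KO of batch 2. The log2 difference from WT was -0.40 ± 0.284 (SE, n = 3 against 3) in Ebi3_KO, 0.19 in Il10_KO and -0.25 in DKO. Averaged over both Il10 genotypes, arrays without Ebi3 lay lower in all 3 batches (-0.51, -0.62 and -0.12), with a mean of -0.42 ± 0.201. The 95% interval of that average was -0.86 to 0.02, and -0.72 to -0.12 with batch in the model, where limma's unadjusted p was 0.0103 and the adjusted p 0.994. Over all tested probe sets, 15.2% lay lower in all 3 batches in this average.

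Of the other 2 probe sets of Entpd1, 1453586_at (95.7 to 342) had the sign of the leading one in every batch in Ebi3_KO (-0.87, -1.10 and 0.24, beside -0.45, -0.80 and 0.05) and in DKO (-1.64, -0.66 and 0.27, beside -0.60, -0.38 and 0.24). Its average for the loss of Ebi3 was -0.44. It correlated with the leading one at r = 0.6 over the 12 arrays, and 1450939_at (45.5 to 176) at r = -0.12, both given as descriptions across arrays that share batches. In the latter, the Il10_KO arrays read 158, 176 and 166 and the WT arrays 119.5, 139 and 45.5, without overlap. The log2 difference was 0.72 ± 0.396, with values of 0.36, 0.30 and 1.51 by batch and an adjusted p of 0.618 with batch in the model (unadjusted p = 0.0266). The WT array of batch 3 was the low one, at 45.5. Groups that did not overlap, with the knockout higher, made up 3.14% of all tested probe sets in Il10_KO against WT, and 2 of the 15 members, this one and the dimmest Nt5e probe set. The latter was below the filter level on all WT arrays (15.4, 22.2 and 15.5) and was tested only through knockout arrays. The filter thus favoured its higher value in a knockout, and nothing is drawn from its place in this count. The Entpd1 probe sets thus pointed in different directions in Il10_KO, by 0.19, -0.38 and 0.72.

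Nt5e, the enzyme that makes adenosine from AMP (1428547_at, chromosome 9), showed the smallest differences from WT of the ectoenzymes. Its signal by batch was 2746, 4648 and 1955 in WT, a range that held the values of all 9 knockout arrays. In Ebi3_KO it was 2818, 3908 and 2956, in Il10_KO 2971, 3504 and 2152 and in DKO 3034, 2663 and 2754. The 3 DKO arrays lay close together (mean 2817 ± 193, SD, n = 3) while the WT arrays were widely spread (3116 ± 1384). Log2 differences were 0.13 ± 0.293 in Ebi3_KO, -0.05 in Il10_KO and -0.06 in DKO. Their 95% intervals were -0.51 to 0.76, -0.69 to 0.58 and -0.69 to 0.58, and -0.30 to 0.55, -0.48 to 0.38 and -0.48 to 0.37 with batch in the model. The second probe set, 1422974_at, read 64.5 to 211 and differed from WT by -0.01, -0.03 and -0.21. The third, 1459023_at, read 3 to 62.5 and reached the filter on dim signal on 4 of 12 arrays, so its differences are not described further.

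Among the inhibitory receptors, Lag3, a receptor for MHC class II (1449911_at, chromosome 6), was the one leading probe set with arrays that did not overlap in a comparison of 2 genotypes, out of 5 such comparisons. Its signal by batch was 323, 467 and 422 in Il10_KO and 172, 262 and 288 in DKO. WT read 258, 396 and 409 and Ebi3_KO 140.5, 405 and 483, both overlapping with DKO. DKO lay below Il10_KO in every batch (-0.83, -0.79 and -0.52), with a mean log2 difference of -0.72 ± 0.403 (SE). The 95% interval was -1.59 to 0.16, or -1.22 to -0.21 with batch in the model, where the unadjusted p was 0.00925 and the adjusted p 1 by limma. In DKO against Il10_KO, 2.13% of all tested probe sets had arrays that did not overlap with DKO lower, and 12.5% lay lower in all 3 batches. Of the 15 members 1 and 6 did so, the 6 being Lag3, Pdcd1, Havcr2 and the 3 probe sets of Entpd1. By limma 4 of 15 had an unadjusted p under 0.05 with batch in the model, against a background of 3.49%. Of these 4, Lag3 and the leading Entpd1 probe set were lower in DKO, and both Lgals1 probe sets were higher. After adjustment 0 of 15 passed (0.0032% of all tested probe sets in either fit).

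Against WT, Lag3 was also lower in DKO in all 3 batches, by similar amounts (-0.53, -0.56 and -0.48, mean -0.52 ± 0.403). With batch in the model the interval was -1.03 to -0.02 (unadjusted p = 0.0436, adjusted p = 0.597). The background for a lower value in all 3 batches was 15.2% in DKO against WT. In the single knockouts Lag3 differed from WT by -0.18 in Ebi3_KO, where batch 1 alone lay clearly below, and by 0.19 in Il10_KO. The interaction term (the DKO and WT means together minus those of the single knockouts) was -0.54 ± 0.57 with an interval of -1.25 to 0.18 with batch in the model (adjusted p = 1). These 2 comparisons of DKO and the interaction share the DKO arrays.

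Pdcd1, the receptor for PD-L1 and PD-L2 (1449835_at, chromosome 1), differed more between batches than between genotypes. By batch its signal was 1229, 849.7 and 1751 in WT and 1179.6, 1004 and 1756 in Il10_KO, 2 nearly parallel series. It was 757, 695 and 1539 in Ebi3_KO and 1007, 857 and 1312 in DKO. Batch 3 held the highest array of each genotype. Ebi3_KO lay below WT in each batch (-0.68, -0.28 and -0.18, background 15.3%) with a mean of -0.38 ± 0.356, and arrays without Ebi3 averaged -0.34 ± 0.252 (-0.45, -0.25 and -0.30 by batch). With batch in the model the interval of the average was -0.58 to -0.09 (unadjusted p = 0.0113, adjusted p = 0.994). Il10_KO differed from WT by 0.06 and DKO by -0.23, with intervals of -0.29 to 0.41 and -0.57 to 0.12 in the same model.

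Havcr2, a receptor for galectin-9 among other ligands (1451584_at, chromosome 11), reversed its difference between batches. The WT arrays read 259.9, 105 and 134, the Ebi3_KO arrays 78.8, 60.3 and 140.4, the Il10_KO arrays 113, 71.4 and 296 and the DKO arrays 73.4, 62.2 and 206. All 6 knockout arrays of batches 1 and 2 lay below the WT array of their batch, and all 3 of batch 3 lay above it. Those 6 arrays were dim, at 60.3 to 113, where the filter level was 35.5 to 52.8 over the arrays. The log2 differences by batch were -1.50, -0.64 and 0.06 in Ebi3_KO, -1.07, -0.45 and 1.04 in Il10_KO and -1.58, -0.60 and 0.56 in DKO. Their means were -0.69 ± 0.532, -0.16 and -0.54, each smaller than the range over batches. The adjusted p with batch in the model was 0.91, 0.944 and 0.721. In batch 3 the myeloid marker sum was 52536 in WT and 51279 in Ebi3_KO, where Havcr2 read 134 and 140.4, and 73488 in Il10_KO and 72787 in DKO, where it read 296 and 206. In batch 1 the highest Havcr2 signal (260, WT) stood at the lowest myeloid sum (6946). The part of other cells in these values was not tested.

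Of the secreted factors, Tgfb1, the TGF-beta 1 precursor (1420653_at, chromosome 7), gave differences from WT that were smaller than the spread between arrays. The WT arrays read 1019, 374 and 688, a range wider than the difference between any pair of group means. The knockouts read 852, 401 and 571 in Ebi3_KO, 666, 471 and 409 in Il10_KO and 792, 487 and 456 in DKO. Batch 1 was the highest in every genotype. The differences were -0.14 ± 0.389, -0.34 and -0.19, with 95% intervals of -0.59 to 0.31, -0.79 to 0.12 and -0.64 to 0.26 with batch in the model. The second probe set, 1445360_at, was also highest in batch 1 in every genotype (80.4 to 474 over all arrays) and differed from WT by -0.04, 0.12 and 0.49. In Il10_KO and DKO the signs of the 2 probe sets were opposite.

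Fgl2, the fibrinogen-like protein (1421855_at, chromosome 5), gave the lowest mean difference of the leading probe sets, and it too depended on the batch. WT read 1310.2, 1377 and 788 and Ebi3_KO 528, 568 and 962. Il10_KO read 735, 958 and 1344 and DKO 578, 1013 and 1202. In batches 1 and 2 WT was the highest array of its batch, and in batch 3 it was the lowest. Ebi3_KO differed from WT by -1.28, -1.25 and 0.28 in the 3 batches, a mean of -0.75 ± 0.354 with an interval of -1.52 to 0.02. With batch in the model the interval was -1.36 to -0.14 (unadjusted p = 0.0202, adjusted p = 0.91 by limma). Il10_KO differed by -0.82, -0.51 and 0.75 (mean -0.19) and DKO by -1.15, -0.44 and 0.60 (mean -0.33). The background for all 6 knockout arrays of batches 1 and 2 below WT was 8.46%, and for this together with all 3 of batch 3 above WT it was 1.57%. Of the 15 members 3 did the former, both Fgl2 probe sets and Havcr2, and 2 the latter, the leading Fgl2 probe set and Havcr2. These patterns were noticed in the values and then counted.

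The second Fgl2 probe set, 1421854_at, was the one member that lay below the WT array of its batch on all 9 knockout arrays. The share of all tested probe sets doing so was 2.95%. Its signal was 188, 237 and 418 in WT, 91.9, 94.6 and 252 in Ebi3_KO, 124, 125 and 336 in Il10_KO and 151, 61.3 and 330.3 in DKO. Every knockout overlapped with WT, and batch 3 was the highest in every genotype. By batch the difference was -0.90, -1.17 and -0.69 in Ebi3_KO (mean -0.92 ± 0.567), -0.53, -0.83 and -0.30 in Il10_KO (mean -0.55) and -0.28, -1.66 and -0.32 in DKO (mean -0.75). With batch in the model limma gave Ebi3_KO an interval of -1.50 to -0.33 (unadjusted p = 0.00475, adjusted p = 0.91) and DKO one of -1.34 to -0.17 (adjusted p = 0.513). In batch 3 the 2 Fgl2 probe sets thus differed in sign, the leading one above WT and this one below. They correlated at r = 0.49 over the 12 arrays.

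**Figure D2:**
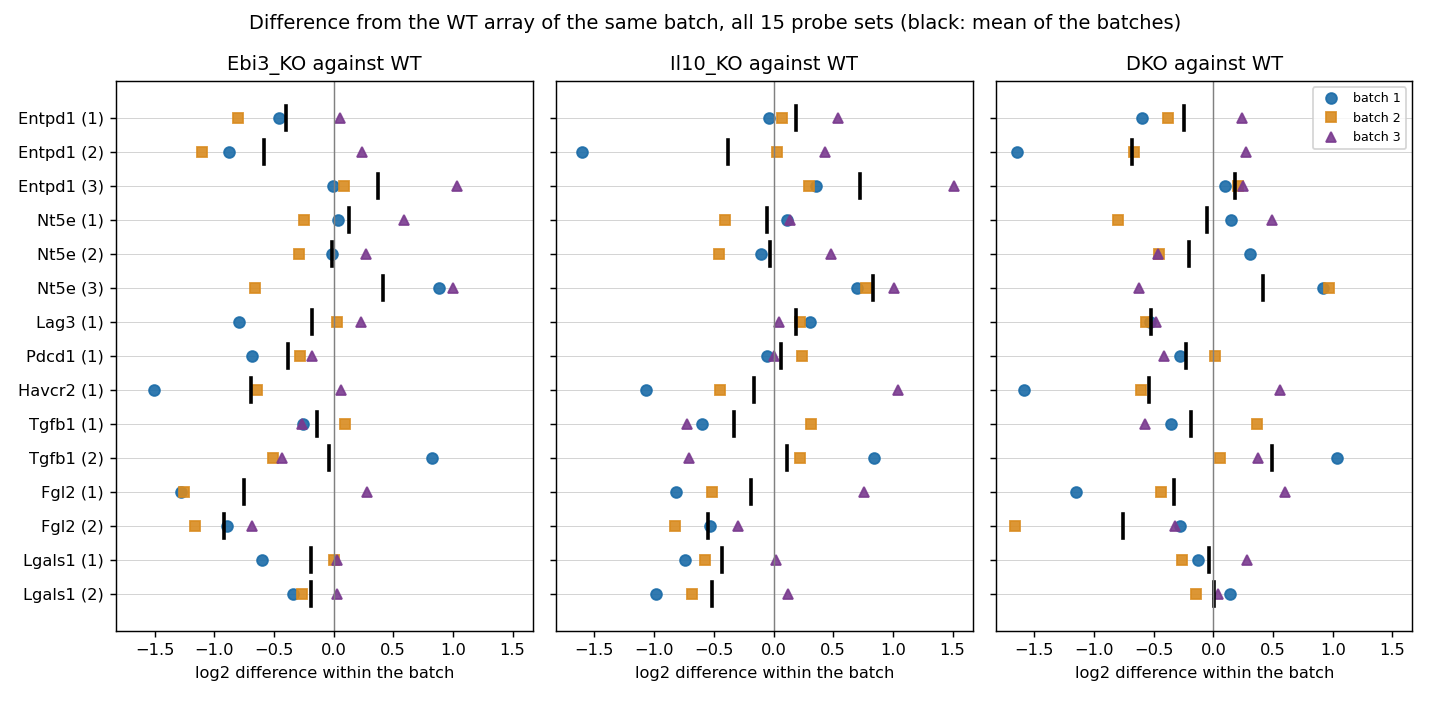
Log2 difference of each knockout array from the WT array of its batch for all 15 member probe sets, 1 panel per knockout, with a bar at the mean of the 3 batches and probe sets numbered in order of mean signal within a gene. The second Fgl2 probe set lies left of 0 in all 9 points, while Havcr2 and the leading Fgl2 probe set lie left in batches 1 and 2 and right in batch 3.

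Lgals1, the lectin galectin-1 (1455439_a_at, chromosome 15), had the narrowest range over arrays of the leading probe sets. It read 19748, 15668 and 16239 in WT and 13011, 15743 and 16528 in Ebi3_KO. In Il10_KO it read 11777, 10537 and 16444, and in DKO 18018, 13084 and 19785. The low arrays were Il10_KO of batches 1 and 2, while Il10_KO of batch 3 read like WT. The difference from WT was -0.74, -0.57 and 0.02 by batch in Il10_KO, a mean of -0.43 ± 0.208, with an interval of -0.88 to 0.02, or -0.77 to -0.09 with batch in the model (unadjusted p = 0.0159, adjusted p = 0.581). In Ebi3_KO it was -0.19 and in DKO -0.04. The DKO arrays lay above the Il10_KO arrays of their batch in all 3 batches (0.61, 0.31 and 0.27, background 13.8%), and the interaction was 0.59 ± 0.294 (1.21, 0.31 and 0.24 by batch). The interaction's interval was 0.11 to 1.06 with batch in the model (unadjusted p = 0.0198, adjusted p = 1). Limma called 0 probe sets in the interaction in either fit, with 400 at an unadjusted p under 0.05 without batch and 1232 with it, or 3.94%, of which 3 of 15 members.

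The second Lgals1 probe set, 1419573_a_at, followed the leading one (r = 0.78 over the 12 arrays). Its Il10_KO arrays read 3738, 2499 and 6725 against 7414, 4033 and 6174 in WT. The difference was -0.98, -0.69 and 0.12 by batch, with a mean of -0.52 ± 0.4, and the interaction was 0.72 ± 0.566 (1.46, 0.80 and -0.11 by batch). Neither passed, with an adjusted p of 0.581 and 1 with batch in the model. Both Lgals1 probe sets were thus lower in Il10_KO than in WT in batches 1 and 2 and slightly higher in batch 3.

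Averaged over both genotypes of the other gene, the loss of Ebi3 and the loss of Il10 each gave 5 of the 8 leading probe sets below 0. Of the 15 members 10 lay below 0 for Ebi3 and 9 for Il10, where 16221 and 14455 of all 31235 tested probe sets did. For the loss of Ebi3 the leading probe sets had a median of -0.38 beside -0.0082 over all tested probe sets. Entpd1, Lag3, Pdcd1 and Havcr2 were lower in all 3 batches, and with 2 further probe sets, the second of Fgl2 and the third of Entpd1, this made 6 of 15 members against a background of 15.2%. Havcr2 averaged -0.54 ± 0.376 (-1.01, -0.40 and -0.21 by batch) and Lag3 -0.45 ± 0.285 (-0.81, -0.38 and -0.15). At an unadjusted p under 0.05 there were 5 of 15 members with batch in the model and 0 without, against 4.54% of all tested probe sets with batch, and 0 of 15 passed after adjustment (background 0.0032%, or 0.0064% with batch). These were both Fgl2 probe sets and the leading ones of Entpd1, Lag3 and Pdcd1, and the 2 of Fgl2 measure 1 gene. Lgals1 lay higher in all 3 batches (background 12.9%), by 0.10 ± 0.147 on average.

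For the loss of Il10, averaged over both Ebi3 genotypes, the median of the 8 leading probe sets was -0.042 beside 0.022 over all tested probe sets. None of the 15 members was lower in all 3 batches, where the background was 13.3%. The 2 that were higher in all 3 (background 14.6%) were the second probe set of Tgfb1 (0.32) and the third of Entpd1 (0.27). By limma 0 of 15 members had an unadjusted p under 0.05 in either fit, where 8.62% of all tested probe sets did so with batch, and 0 passed after adjustment (0.0128%, or 0.064% with batch). DKO against Ebi3_KO gave 0 of 15 at an unadjusted p under 0.05 in either fit (background 4.95% with batch) and 0 after adjustment (0.0064%, or 0.0192% with batch). The members lay between -0.35 for Lag3 and 0.53 there.

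**Figure D3:**
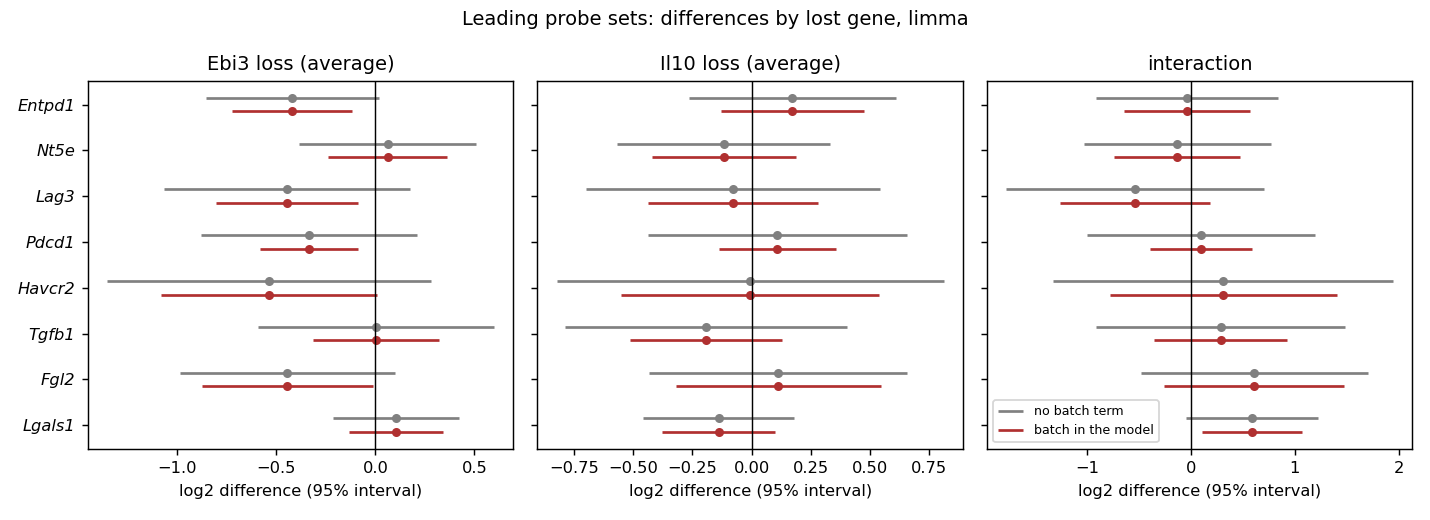
Log2 difference with its 95% interval by limma for the leading probe set of each gene, for the loss of Ebi3, the loss of Il10 (each averaged over both genotypes of the other gene) and their interaction, with no batch term (grey) and with batch in the model (red). Without the batch term every interval holds 0. With it the intervals of Entpd1, Lag3, Pdcd1 and Fgl2 for the loss of Ebi3 and that of Lgals1 for the interaction do not, and no adjusted p of these 8 probe sets is below 0.05.

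By batch, 12, 11 and 4 of the 15 members lay below WT in batches 1, 2 and 3 in Ebi3_KO. The counts were 10, 7 and 3 in Il10_KO, and 9, 10 and 6 in DKO, so batch 3 had the fewest in each knockout. In Ebi3_KO the median of the 8 leading probe sets was -0.64 in batch 1, -0.27 in batch 2 and 0.058 in batch 3. In Il10_KO it was -0.33, -0.17 and 0.09, and in DKO -0.44, -0.41 and 0.26. Over all 15 members the Il10_KO median of batch 2 was 0.031, above 0. The medians over all tested probe sets lay between -0.047 and 0.034 in these 9 comparisons. In batch 3, 8 of the 15 members were higher in all 3 knockouts than in WT, against 22.5% of all tested probe sets. These were the 3 probe sets of Entpd1, both of Lgals1, Havcr2 and the leading ones of Nt5e and Fgl2. Entpd1 and Lgals1 thus count more than once. The 3 comparisons of a batch share its WT array, so these medians are not independent of each other, and for WT of batch 1 the immediate-early sum was the lowest of the 12 arrays.

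The labelled batch was tested in the same way. In an F test of batch with genotype in the model, limma called 8 of 15 member probe sets, against 41.8% of all tested probe sets, so many probe sets passed everywhere. They were the leading ones of Pdcd1 (adjusted p = 0.000748), Tgfb1 (0.00383), Lag3 (0.00833), Havcr2 (0.0272) and Nt5e (0.0433), and the second ones of Lgals1, Tgfb1 and Fgl2. From batch 1 to batch 3 the mean log2 difference was 0.83 for Lag3, 0.61 for Pdcd1, 0.59 for Havcr2, -0.25 for Nt5e and -0.64 for Tgfb1. For the second Fgl2 probe set it was 1.17. The other 7 members, among them the leading probe sets of Entpd1, Fgl2 and Lgals1, did not pass this test.

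Without batch 3, in which the myeloid marker sum stood apart, no member passed either. This removal was chosen after the values were seen. The difference from WT was larger in size for 11 of 15 members in Ebi3_KO, 11 in Il10_KO and 10 in DKO, and smaller for the others. Among the smaller ones, Tgfb1 in Il10_KO went from -0.34 to -0.14, the leading Entpd1 probe set in Il10_KO from 0.19 to 0.016, the third Entpd1 probe set in Il10_KO from 0.72 to 0.33, and Pdcd1 in DKO from -0.23 to -0.13. For the leading Fgl2 probe set, Havcr2 and, in Il10_KO, Lgals1, whose differences in batch 3 were of opposite sign, leaving it out enlarges the mean by construction. In batches 1 and 2 alone, with batch in the model, Fgl2 differed from WT by -1.26 in Ebi3_KO (adjusted p = 0.574), -0.67 in Il10_KO and -0.79 in DKO. Havcr2 differed by -1.07, -0.76 and -1.09 (adjusted p = 0.922, 0.76 and 0.64). Lgals1 in Il10_KO differed by -0.66 and -0.84 for its 2 probe sets (adjusted p = 0.733 and 0.561). Of the 15 members 0 passed in any of the 8 comparisons without batch 3.

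**Figure D4:**
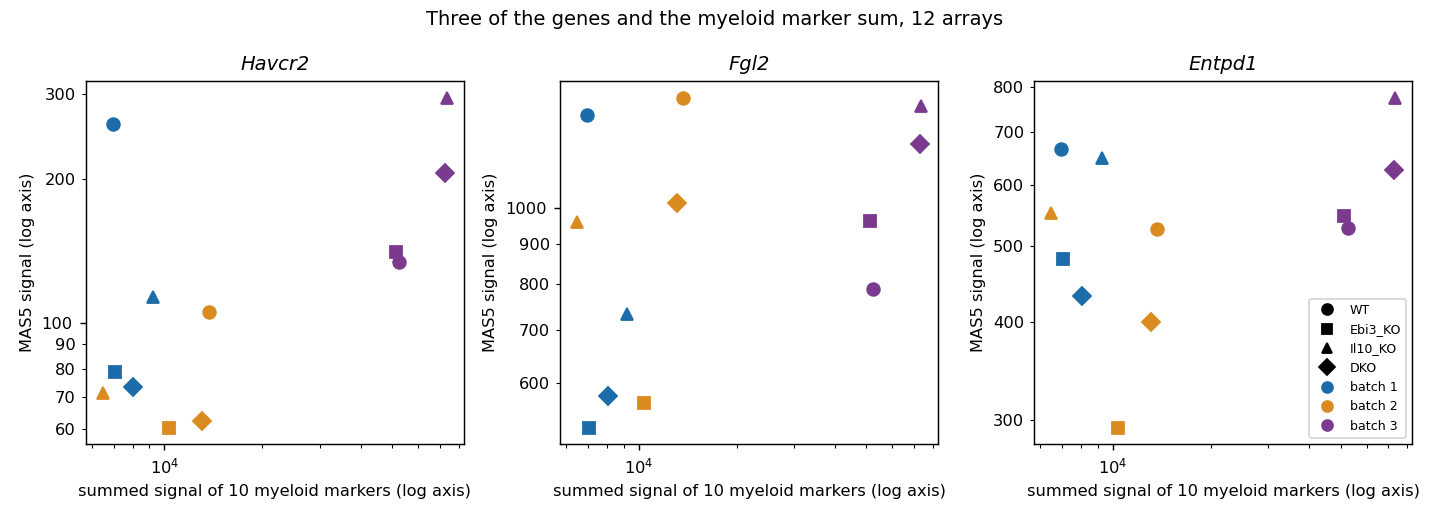
Signal of the leading probe sets of Havcr2, Fgl2 and Entpd1 (log axis) against the summed signal of 10 myeloid markers (log axis) on 12 arrays, with genotype as the marker shape and batch as the colour. The 4 arrays of batch 3 stand apart on the horizontal axis, at 51279 to 73488, and within that batch Il10_KO and DKO are the highest for these 3 leading probe sets. Of the probe sets not shown, the second of Entpd1 had the same order there. The second of Fgl2 was highest in WT (418.1), and the third of Entpd1 read 57.6 in DKO and 113.8 in Ebi3_KO.

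Pdcd1 lies on chromosome 1, as Il10 does, so its neighbours were read in the same way. In the RefSeq order of build GRCm38.p6, the nearest 5 tested genes on each side were Atg4b, Dtymk, Ing5, D2hgdh, Gal3st2, Fam174a, St8sia4, Panct2, Macir and Ppip5k2. D2hgdh encodes a dehydrogenase of D-2-hydroxyglutarate and stands 2 tested genes from Pdcd1. Averaged over both Ebi3 genotypes, it was lower on arrays labelled as lacking Il10, by 1.46 on the log2 scale (limma, SE 0.188, adjusted p = 0.0321, or 0.000134 with batch in the model). It was lower in all 3 batches (-1.62, -1.28 and -1.50). Whether D2hgdh follows the lost cytokine or the chromosome that carries Il10 was not tested. In the same average Pdcd1 differed by 0.11 ± 0.252 and the neighbour between them, Gal3st2, by 0.098 ± 0.355. The 9 other neighbours did not pass in either fit, the nearest to doing so being Macir (-0.57, adjusted p = 0.29 with batch).

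**Figure D5:**
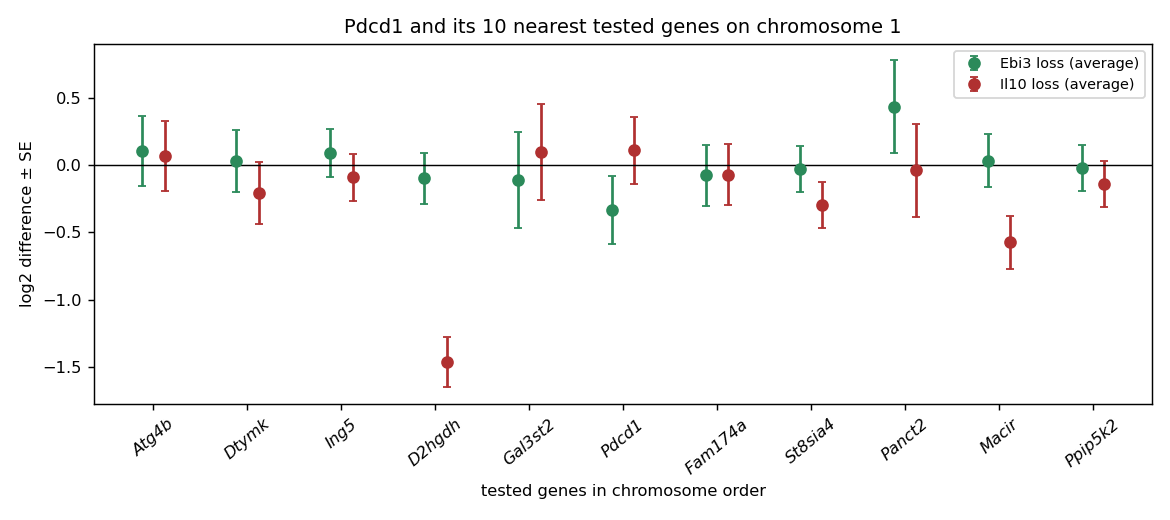
Log2 difference ± SE (limma, no batch term) for Pdcd1 and the 10 nearest tested genes in their order along chromosome 1, for the loss of Ebi3 and the loss of Il10, each averaged over both genotypes of the other gene. D2hgdh lies at -1.46 for the loss of Il10, while Pdcd1 lies at 0.11 for the loss of Il10 and -0.34 for that of Ebi3.

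The other genes of the pathways these molecules work in gave no call either. Lists were made for adenosine handling (17 of 25 genes measured), inhibitory receptors and their partners (28 of 32), TGF-beta activation and signalling (25 of 31), galectins and Fgl2 partners (16 of 18), the amphiregulin and EGF family (17 of 22) and regulators of these receptors in T cells (20 of 22). In all 6 lists 0 genes passed in either direction, in any of the 8 comparisons and in either fit. In the adenosine list 7, 8 and 6 of 17 genes lay above 0 in Ebi3_KO, Il10_KO and DKO against WT, with medians of -0.039, -0.034 and -0.10. Among the inhibitory receptors and partners 16, 17 and 17 of 28 lay above 0, with medians of 0.031, 0.049 and 0.12. The TGF-beta list had 13, 13 and 14 of 25 above 0 and medians of 0.017, 0.05 and 0.0082, and the galectin list 6, 8 and 10 of 16 with medians of -0.078, -0.0011 and 0.092. The medians over all tested probe sets were -0.028, -0.00064 and 0.0092.

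The amphiregulin and EGF family list stood furthest from 0, with 10, 15 and 13 of 17 genes above it and medians of 0.24, 0.32 and 0.38. Of all tested probe sets, 45.7%, 49.9% and 51.2% lay above 0 in these comparisons. Il18r1, on chromosome 1 as Il10 is, encodes part of the receptor for IL-18, a cytokine that induces Areg in tissue Tregs. The list's gene of smallest p by limma in DKO against WT was Il18r1, at 1.33 ± 0.406 (adjusted p = 0.0719 with batch in the model, 1 without). In Il10_KO it was Hbegf, a heparin-binding ligand of the EGF receptor (0.67 ± 0.382, adjusted p = 0.555 with batch), and in Ebi3_KO Gata3, a transcription factor of type 2 immunity and tissue Tregs (0.36 ± 0.199, adjusted p = 0.91 with batch). The corresponding genes of the TGF-beta list were Itgb8, an integrin chain that activates latent TGF-beta, in DKO (-0.58 ± 0.275, adjusted p = 0.363 with batch), Tgfbr1, the type I receptor, in Il10_KO (-0.45 ± 0.187, adjusted p = 0.503), and Tgif1, a SMAD corepressor, in Ebi3_KO (1.01 ± 0.948, adjusted p = 0.91). In the receptor list they were Ptpn6, the phosphatase SHP-1 (DKO, -0.45 ± 0.255, adjusted p = 0.436), Cd244a, a receptor of the SLAM family (Il10_KO, 0.56 ± 0.881, adjusted p = 0.612) and Havcr1, a T cell costimulator related to Havcr2 (Ebi3_KO, -1.73 ± 0.555, adjusted p = 0.91). Havcr1 was dim already in WT, with a mean signal of 77.4 where the filter level was 35.5 to 52.8 over the arrays.

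For the remaining lists no adjusted p with batch was below 0.269 in the comparisons with WT. In the adenosine list they were Slc29a2, a nucleoside transporter (DKO, 0.93 ± 0.427, adjusted p = 0.602 with batch), Panx1, an ATP channel (Il10_KO, -0.26 ± 0.21, adjusted p = 0.709), and Dpp4, which binds adenosine deaminase (Ebi3_KO, -0.28 ± 0.395, adjusted p = 0.921). Slc29a2 was dim in WT, with a mean signal of 22.6, where the filter level was 35.5 to 52.8 over the arrays. In the galectin list Mgat5, which builds the branched glycans that galectins bind, differed by 0.41 ± 0.233 in DKO (adjusted p = 0.535), and Cd69, an early activation antigen and galectin-1 ligand, by 1.05 in Ebi3_KO and 1.08 in Il10_KO (adjusted p = 0.91 and 0.604). Among the regulators Rora, a nuclear receptor of innate-like and tissue T cells, differed by 0.70 ± 0.362 in DKO (adjusted p = 0.269), Tbx21, the type 1 transcription factor T-bet, by 0.61 ± 0.439 in Il10_KO (adjusted p = 0.612) and Nr4a1, an immediate-early target of the T cell receptor, by 1.00 ± 0.595 in Ebi3_KO (adjusted p = 0.91). Leaving out 1 batch moved several of the named means by over 1.5 times. Without batch 1, Cd69 averaged 0.27 in Ebi3_KO and 0.38 in Il10_KO, Tgif1 0.17 and Nr4a1 0.50 in Ebi3_KO. Without batch 2, Slc29a2 averaged 0.55 in DKO, Tbx21 0.38 in Il10_KO and Dpp4 -0.096 in Ebi3_KO. Nr4a1 is also 1 of the 12 immediate-early genes whose sum was lowest in WT of batch 1. Of the genes named from the lists, Il18r1, Cd244a and Mgat5 lie on chromosome 1, as Il10 does. Tgif1 lies on chromosome 17, as Ebi3 does. Whether their differences follow the lost cytokine gene or its chromosome was not tested.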

How the data were processed

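RNA was measured on 12 arrays, and 1 table of MAS5 signals was deposited on a natural log scale. Per the submitters' processing notes MAS5 and Partek 6.4 were used, with no scale stated. Exponentiating the deposited values and subtracting 20 gave multiples of 0.1 (within 0.005, below a signal of 200) and equal trimmed means (2% from each end), so the values are the natural log of signal + 20. They were divided by the natural log of 2, with no other normalization. The arrays' median signals were 59.3 to 89.1, and the number of arrays limits the precision.

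Of 45101 probe sets, 64 controls were left out, and 31235 were tested that reached the array's 40th percentile (35.5 to 52.8) on at least 3 arrays. Platform annotation gave 34945 probe sets 1 symbol (34741 matched to RefSeq, GRCm38.p6), 932 several and 9160 none. All 4 genotypes were fitted together in limma 3.58.1 (R 4.3.3, lmFit, contrasts.fit, eBayes with trend, 8 residual degrees of freedom) with 8 contrasts. The fit with batch as a block left 6 degrees of freedom. The replicate number is the labelled batch, and same-numbered arrays correlated at 0.325 to 0.664 after removal of genotype means (18 pairs), against -0.531 to -0.0204 for the other 36 pairs, so the numbers pair the arrays.

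Both fits were tested on simulated data for 31235 probe sets, in which some of the brighter ones received a known change. For Ebi3_KO against WT, 4% of changes of log2 1 and 66% of log2 2 were recovered without batch, and 62% and 91% with it. For Il10_KO these were 4%, 53%, 61% and 87%, and for DKO 3%, 57%, 56% and 93%. False calls in Ebi3_KO, Il10_KO and DKO numbered 1, 0 and 0 without batch, and 8, 7 and 5 with it. Recovery in dim probe sets was not measured, so these shares do not apply to the dimmer members.

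The members, gene lists and tests were chosen with earlier results of these data known. Named are all member probe sets, led by the one of highest mean; of each pathway list, any gene past the threshold or else that of smallest p with batch in each comparison with WT; and for each member the 2 genes of highest correlation. Cell type marker lists covered Tregs, T cells, conventional CD4 cells, CD8 and NK cells, B cells, plasma cells, myeloid cells, neutrophils, dendritic cells, erythroid cells, proliferation and immediate-early genes. Alternatives were the batch block, no filter, quantile normalization, log2(signal + 1), and each array or batch left out. Promoter windows are RefSeq's.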

Additional observations from a re-analysis of the deposited data

How the results depend on the processing

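No member passed in any of the 36 fits with their 8 contrasts, where the smallest adjusted p of a member was 0.196. Of 96 differences of leading probe sets from WT under the whole-table alternatives 1 changed sign, Lgals1 in DKO with quantile normalization (0.00019). With 1 batch left out, a choice made after seeing the data, 12 of 72 did. Without batch 1 these were Lag3 (0.13) and Lgals1 (0.016) in Ebi3_KO, Havcr2 (0.29) and Fgl2 (0.12) in Il10_KO, and Fgl2 (0.0799) and Lgals1 (0.013) in DKO. Without batch 2 they were Nt5e (0.13) and Pdcd1 (-0.027) in Il10_KO, and Nt5e (0.32) and Lgals1 (0.076) in DKO, and without batch 3 Nt5e in Ebi3_KO (-0.11) and Tgfb1 in DKO (0.00297).

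With 1 array left out, in the fit with no batch term, 18 of 144 changed sign. Such a fit compares genotypes over unequal batches, so batch differences enter these values. The ranges were, in Ebi3_KO, -0.51 to 0.19 for Tgfb1, -0.49 to 0.33 for Lag3 and -0.16 to 0.46 for Nt5e. In Il10_KO they were -0.011 to 0.34 for Lag3, -0.67 to 0.23 for Havcr2, -0.44 to 0.012 for Fgl2, -0.34 to 0.28 for Nt5e and -0.20 to 0.32 for Pdcd1. In DKO they were -0.56 to 0.14 for Tgfb1, -0.16 to 0.14 for Lgals1, -0.34 to 0.28 for Nt5e and -0.48 to 0.028 for Pdcd1. How far the missing batch balance or the genotype gave these sign changes was not tested.

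Over all tested probe sets, the replicate block changed the count of calls from 2 to 12 in Il10_KO against WT, 3 to 13 in DKO against WT, 2 to 6 in DKO against Ebi3_KO, 1 to 2 for the loss of Ebi3 and 4 to 20 for the loss of Il10, and it changed no call of a member. With log2(signal + 1) and no batch term the counts were 0 in Ebi3_KO against WT and 0 in DKO against Il10_KO. The next counts are also from the fit with no batch term. Without batch 1, 0 were called in DKO against Ebi3_KO and 2 for the loss of Il10. Without batch 2, 0 were called in each comparison of 2 genotypes and for the loss of Ebi3, and 2 for the loss of Il10. Without batch 3, 0 were called in each comparison of 2 genotypes, 3 for the loss of Ebi3 and 1 for the loss of Il10. With batch in the model, probe sets did pass in these comparisons. Limma's smallest adjusted p without batch 3 was then 0.000538 in Ebi3_KO, 0.00383 in Il10_KO and 0.00123 in DKO against WT. It was 2.42e-05 in Il10_KO against WT without batch 2, and 0.00019 in DKO against Ebi3_KO without batch 1. With 1 array left out, in either fit, counts ranged from 1 to 8 in Ebi3_KO, 2 to 7 in Il10_KO and 3 to 31 in DKO against WT, 2 to 7 in DKO against Ebi3_KO, 1 to 16 in DKO against Il10_KO, 1 to 32 for the loss of Ebi3, 2 to 33 for the loss of Il10 and 0 to 1 for the interaction.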

Other observations

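The genes whose signal ran most like a member over the 12 arrays differed for every member, and are given as a description, since arrays share batches. Among about 8475 named genes of at least median signal, Entpd1 ran most like Mettl7a1 (r = 0.954), Nt5e like Ankrd10 (0.921), Lag3 like Aldh7a1 (0.921) and Pdcd1 like Plxnc1 (0.952). Havcr2 ran most like Ngrn (0.952), Tgfb1 like Fmc1 (0.955), Fgl2 like Chd9 (0.871) and Lgals1 like Vim, the intermediate filament vimentin (0.881). The second genes were Gbp2, 5033430I15Rik, Sap30bp, Tefm, Bnip1, Med1, Ccr9 and Tsen15, in the same order of members, with r between 0.866 and 0.95. No member was among the 2 genes most like another.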
